A study of Caenorhabditis elegans with 16 samples.

Results

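The genes of ornithine, proline and polyamine metabolism described here are *odc-1*, *smd-1*, *spds-1*, *oatr-1*, *alh-6* and *prdh-1*, 6 of the 25498 genes measured. They are the genes whose symbol the array annotation gives to a probe set, and each of the 6 had exactly 1 probe set of its own. They were brought together around *odc-1*, because of all the amino acid genes it had the smallest p-value between the strains after starvation. It was thus chosen by the log2 values of the starved arrays, and its values there are given below as a description, with no test.

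Ornithine stands at a branch point. Ornithine decarboxylase takes it to putrescine, and S-adenosylmethionine decarboxylase and spermidine synthase then build spermidine, a polyamine that binds RNA and is needed for the hypusine modification of a translation factor. Ornithine aminotransferase instead links ornithine to the pyrroline carboxylate that proline dehydrogenase makes from proline in mitochondria, and a further dehydrogenase oxidizes that product to glutamate. Polyamine synthesis is known for its tie to growth, and proline breakdown for its use as a mitochondrial fuel.

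RNA of whole worms was measured on 16 Affymetrix *C. elegans* arrays, 4 for each strain and food condition. The groups were *alfa-1(ok3062)* worms kept 6 hr without food, well-fed *alfa-1(ok3062)* worms, N2 worms kept 6 hr without food and well-fed N2 worms, N2 being the wild-type strain. *alfa-1* is the worm orthologue of *C9orf72*, and ok3062 is a deletion with a small insertion in its exons that left no ALFA-1 protein visible on a western blot in the study. Worms of both strains grew on the bacterial strain OP50 and were handled in M9 buffer, and the labels give the age as L3 where the study's methods give L3/L4. According to the labels the well-fed worms had food in the buffer for the same 6 hr, whereas the methods have them frozen at once, so that time in buffer and food cannot be told apart if the methods are right. The strain field of the labels separates mutant and N2 samples, but their source field names a single strain for all 16. The worms of a strain were divided among tubes. Separate cultures for the 4 samples of a group are mentioned nowhere, so a p-value here is set against a spread that could be technical.

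As a check of the labels, *alfa-1* had a lower value on every *alfa-1(ok3062)* array than on any N2 array. The log2 difference was -1.89 in starved worms (adjusted p = 1.21e-08 from limma) and -1.64 in well-fed worms (adjusted p = 1e-07 from limma). Starved N2 replicate 3 stood apart a little from the others. Its mean correlation with the arrays of its own group was 0.984, against 0.987 to 0.995 for the other 15 arrays with theirs. It had the lowest value of its group for *odc-1*, *smd-1*, *spds-1* and *oatr-1*, and values without it are given beside many of the results it moves. The worms were extracted whole, so fewer cells of a type and less RNA per cell cannot be told apart.

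Of the 6 genes, *odc-1* alone had its highest mean level in starved *alfa-1(ok3062)* worms. In the same worms *smd-1* and *spds-1*, whose products also act in spermidine synthesis, were lower than with food, and they were lower by about as much in starved N2. The proline and ornithine genes *oatr-1*, *alh-6* and *prdh-1* did not pass in any comparison tested. With food, none of the 6 genes passed the test between the strains.

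**Figure D1:**
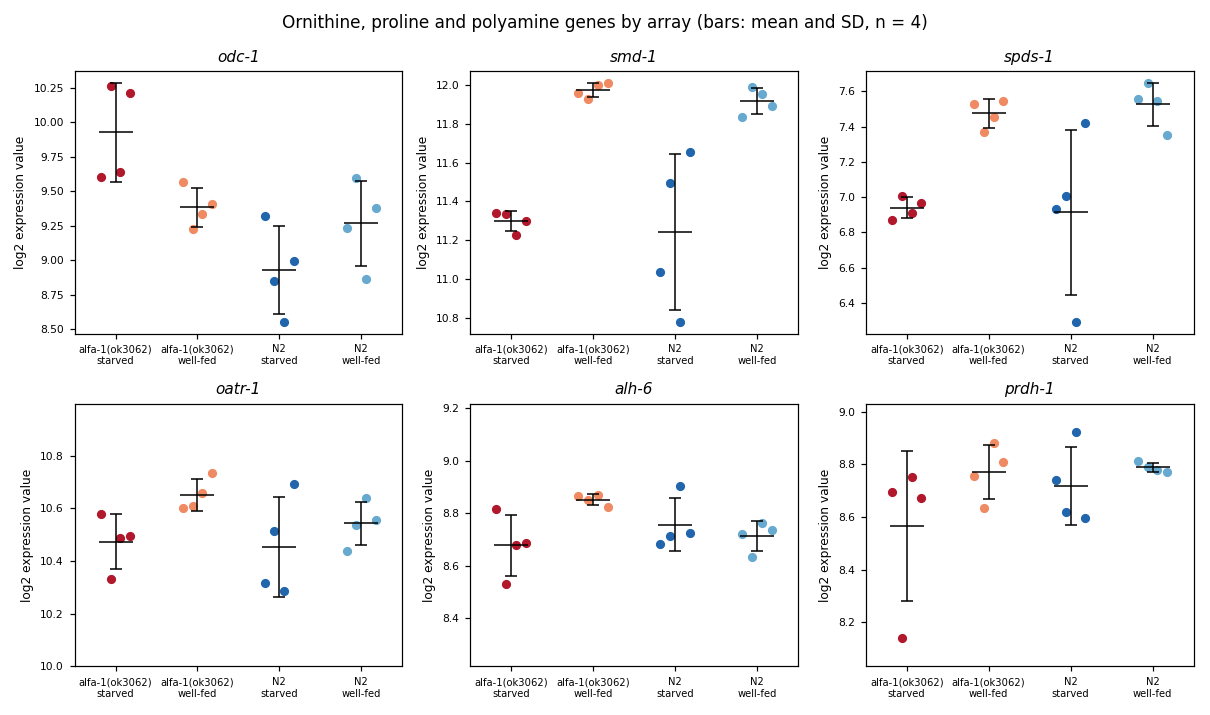
Log2 expression value of the 6 genes on each of the 16 arrays (y axis) for starved and well-fed *alfa-1(ok3062)* and starved and well-fed N2 worms (x axis), with each array as a point and the mean and SD of 4 arrays as bars. The 4 starved mutant arrays of *odc-1* lie between 9.60 and 10.26, above the other 12 arrays, and the starved arrays of *smd-1* and *spds-1* lie mostly below the well-fed ones in both strains.

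*odc-1* encodes ornithine decarboxylase, the enzyme usually regarded as rate-limiting in polyamine synthesis. Starved *alfa-1(ok3062)* replicates 1 to 4 had log2 values of 9.60, 10.26, 9.64 and 10.21, and well-fed *alfa-1(ok3062)* replicates had 9.57, 9.23, 9.33 and 9.41. Starved N2 replicates had log2 values of 9.32, 8.85, 8.55 and 8.99, and well-fed N2 replicates had 9.23, 9.59, 8.86 and 9.38. The starved mutant arrays were thus above all the others, if only just above the highest well-fed arrays, and they fell into a higher pair and a lower pair. Group means were 9.93 ± 0.359 in starved mutants, 9.38 ± 0.141 in well-fed mutants, 8.93 ± 0.320 in starved N2 and 9.27 ± 0.308 in well-fed N2 (SD, n = 4 each). In the order of the means, well-fed mutants and well-fed N2 overlapped, as did well-fed N2 and starved N2.

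Between the starved strains, *odc-1* was 0.999 higher on the log2 scale in *alfa-1(ok3062)* than in N2 (standard error 0.189), which is 1.998-fold. A difference at least as large, in either direction, was found for 0.227% of the 25498 genes. The arrays of the strains did not overlap, as was so with the mutant higher for 1.49% of all genes. All 4 starved mutant arrays were above the other 12 arrays for 105 genes, 0.412% of those measured. Leaving out 1 starved array at a time gave differences between 0.874, without N2 replicate 3, and 1.13, without N2 replicate 1.

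Starvation and *odc-1* went in opposite directions in the strains, as far as the means go. Starved mutants were 0.55 above well-fed mutants on the log2 scale (standard error 0.189), a 1.46-fold difference. These arrays did not overlap, as was so with the starved arrays higher for 11.7% of all genes. Starved N2 worms were 0.34 below well-fed N2 worms (log2 difference -0.34, standard error 0.189), and these arrays overlapped. Without starved N2 replicate 3 the log2 difference in N2 was -0.21, and without well-fed N2 replicate 2 it was -0.23. The difference between both starvation effects, mutant minus N2, was 0.88 (standard error 0.268), and 0.671% of all genes had one at least as large. Without starved N2 replicate 3 this difference was 0.76. Since the starved arrays chose *odc-1*, none of these values was tested.

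The well-fed arrays had no part in the choice of *odc-1*. There its mean was 9.38 in *alfa-1(ok3062)* and 9.27 in N2, a log2 difference of 0.12 (95% confidence interval -0.29 to 0.52, adjusted p = 0.9999 from limma). The sign of this difference rested on well-fed N2 replicate 3, without which it was -0.02.

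Set against *odc-1*, the other 5 genes differed little between the starved strains. Their log2 differences, starved mutant minus starved N2, ran from -0.15 for *prdh-1* to 0.06 for *smd-1* with a median of 0.02, beside 0.999 for *odc-1*. Without starved N2 replicate 3 all 5 were below 0, from -0.18 for *spds-1* to -0.03 for *alh-6* with a median of -0.09, so that *smd-1*, *spds-1* and *oatr-1* turned their sign, beside 0.874 for *odc-1*. With array weights all 5 were below 0 as well, with -0.12 for *smd-1* the lowest. In the mutant, the starvation differences of these 5 genes ran from -0.67 for *smd-1* to -0.17 for *alh-6* with a median of -0.20, beside 0.55 for *odc-1*. In N2 they ran from -0.67 for *smd-1* to 0.04 for *alh-6* with a median of -0.09, and *odc-1* with -0.34 lay within that range. With food, the strain difference of *odc-1* (0.12) lay within the range of the others as well, which was -0.05 for *spds-1* to 0.14 for *alh-6*.

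**Figure D2:**
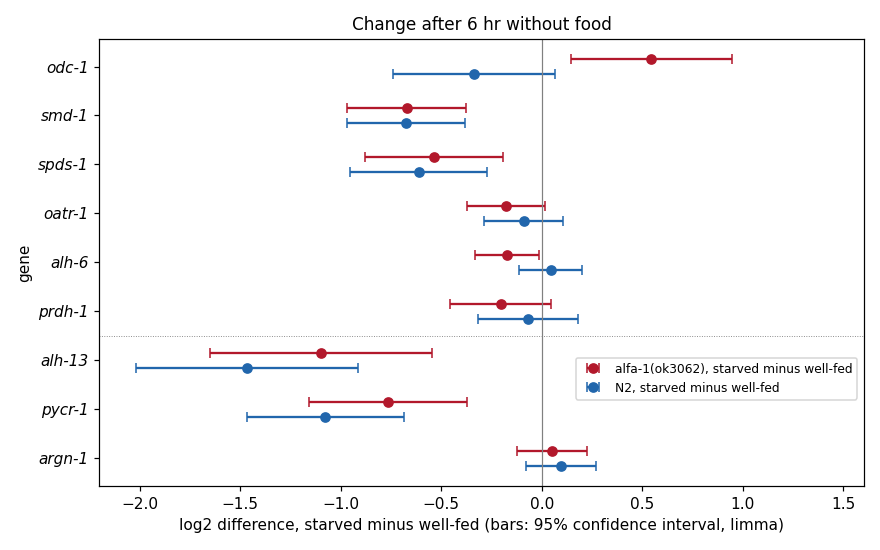
Log2 difference between starved and well-fed worms (x axis) in *alfa-1(ok3062)* (red, upper) and N2 (blue, lower) for the 6 genes and, under the dotted line, 3 genes next to them in the pathway, with bars for the 95% confidence interval from limma, which for *odc-1*, chosen by the starved arrays, is no test. *odc-1* in the mutant is to the right of 0 at 0.55, whereas *smd-1*, *spds-1*, *alh-13* and *pycr-1* are to the left of it in both strains.

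*smd-1* encodes S-adenosylmethionine decarboxylase, which supplies the aminopropyl groups of spermidine. Its log2 values were 11.34, 11.34, 11.23 and 11.30 in starved mutants, against 11.96, 11.93, 11.998 and 12.01 in well-fed mutants. In starved N2 they were 11.04, 11.50, 10.78 and 11.65, against 11.83, 11.99, 11.95 and 11.89 in well-fed N2. No starved array of either strain reached a well-fed one, as was the case for 15.7% of all genes in the mutant and 12.2% in N2. The starved N2 arrays were spread far more widely (SD 0.403) than those of the other groups (SD 0.0379 to 0.0680).

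*smd-1* fell in both strains, by 0.67 on the log2 scale in *alfa-1(ok3062)* (standard error 0.139, adjusted p = 0.00246 from limma) and by 0.67 in N2 (standard error 0.139, adjusted p = 0.00256 from limma). The fall differed between the strains by 0.0022, with a 95% confidence interval from -0.41 to 0.42 (adjusted p = 0.998 from limma). Without starved N2 replicate 3 the log2 difference in N2 was -0.52 (adjusted p = 0.00454 from limma). The methods' t-test, adjusted in the same way, did not pass it in N2 (adjusted p = 0.0865). Between the strains *smd-1* differed by 0.06 in well-fed worms (95% confidence interval -0.24 to 0.35, adjusted p = 0.9999 from limma).

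*spds-1* encodes spermidine synthase, which joins an aminopropyl group to putrescine. Its log2 values were 6.87, 7.01, 6.91 and 6.97 in starved mutants, against 7.53, 7.37, 7.46 and 7.55 in well-fed mutants. In starved N2 they were 6.93, 7.01, 6.29 and 7.42, against 7.56, 7.65, 7.55 and 7.35 in well-fed N2. The mutant groups were apart, while starved N2 replicate 4 lay above the lowest well-fed N2 array and starved N2 replicate 3 lay far below the rest. In the mutant, starved arrays were all below well-fed ones for 15.7% of all genes.

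*spds-1* fell by 0.54 on the log2 scale in *alfa-1(ok3062)* (standard error 0.161, adjusted p = 0.0231 from limma) and by 0.61 in N2 (standard error 0.161, adjusted p = 0.0123 from limma). The difference between these falls was 0.08, with a 95% confidence interval from -0.41 to 0.56. In the mutant the gene no longer passed without well-fed mutant replicate 1 (adjusted p = 0.0545) or replicate 4 (adjusted p = 0.0581), nor after a further quantile (adjusted p = 0.0714) or cyclic loess normalization (adjusted p = 0.111). In N2 it passed without starved replicate 3, with a log2 difference of -0.41 (adjusted p = 0.0168 from limma), and was lost when only the 8 N2 arrays were fitted (adjusted p = 0.0685) or with the methods' t-test (adjusted p = 0.155).

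Molting, neuron and intestine markers fell on starvation in part. Of 6 molting markers 2 fell in *alfa-1(ok3062)* and 6 in N2, with median log2 differences of -0.53 and -1.14. Of 5 neuron markers 2 fell in *alfa-1(ok3062)* and 3 in N2, with medians of -0.13 and -0.31. Of 5 intestine markers 2 fell in the mutant and 1 in N2. Of all genes, 14.3% fell and 10.9% rose in the mutant, and 11.6% fell and 10.8% rose in N2. Of 10 germ line markers 0 passed in the mutant and 4 rose in N2. Of 5 late larval and adult markers 2 rose and 1 fell in the mutant, and 3 rose and 1 fell in N2. Of 5 body wall muscle markers 0 passed in the mutant, and 1 rose and 1 fell in N2. Starved N2 replicate 3 had the lowest molting mean of its group (8.97, against 9.84 to 10.61) and was also lowest for *smd-1* and *spds-1*, and for *alh-13* and *pycr-1* below. The part of these markers in the falls of *smd-1*, *spds-1* and the genes next to them was not tested.

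Counted together, 2 of the 5 genes tested fell in *alfa-1(ok3062)* on starvation and 0 rose, where 14.3% of all genes fell and 10.9% rose. In N2 2 of 5 fell and 0 rose, where 11.6% of all genes fell and 10.8% rose. The genes were the same pair in both strains, *smd-1* and *spds-1*. Between the well-fed strains 0 of 6 passed limma, where 0.0902% of all genes did, and 0 of 6 had an unadjusted p under 0.05 by limma and 1 of 6 by the methods' t-test, against 4.72% and 7.04% of all genes. For the difference between the starvation effects 0 of 5 passed limma and 0 of 5 had an unadjusted p under 0.05, where 0% of all genes passed and 6.44% had such an unadjusted p. The mutant and N2 starvation comparisons share no array, but they share 1 estimate of the spread from all 16 arrays, so their p-values are not separate. Without starved N2 replicate 3 the adjusted p from limma in the mutant was 0.000256 for *smd-1* and 0.00121 for *spds-1*.

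*oatr-1* encodes ornithine aminotransferase. Its log2 values were 10.58, 10.33, 10.49 and 10.49 in starved mutants, against 10.60, 10.61, 10.66 and 10.74 in well-fed mutants, groups that just failed to overlap. In starved N2 they were 10.32, 10.52, 10.28 and 10.69, against 10.44, 10.54, 10.64 and 10.56 in well-fed N2, groups that did overlap. Starved mutant arrays were all below well-fed mutant arrays for 15.7% of all genes. The starvation difference of *oatr-1* was -0.18 in the mutant (95% confidence interval -0.37 to 0.02, adjusted p = 0.179 from limma) and -0.09 in N2 (-0.29 to 0.10, adjusted p = 0.542). Without starved N2 replicate 3 the difference in N2 was -0.03 (adjusted p = 0.846 from limma). The 95% confidence interval for well-fed mutants minus well-fed N2 was -0.09 to 0.30 around a difference of 0.11.

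*prdh-1* encodes proline dehydrogenase, which starts proline breakdown. Its log2 values were 8.70, 8.14, 8.75 and 8.67 in starved mutants, against 8.76, 8.64, 8.88 and 8.81 in well-fed mutants. In N2 they were 8.74, 8.62, 8.92 and 8.60 without food, against 8.81, 8.79, 8.78 and 8.77 with food. Groups overlapped in both strains, and starved mutant replicate 2 lay far below the others. The starvation difference was -0.20 in the mutant (95% confidence interval -0.45 to 0.04, adjusted p = 0.226 from limma) and -0.07 in N2 (-0.32 to 0.18, adjusted p = 0.733). Without starved N2 replicate 3 the difference in N2 was -0.14 (adjusted p = 0.482 from limma). In the mutant it was between -0.27 and -0.06 over the alternatives run.

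*alh-6* encodes the mitochondrial pyrroline carboxylate dehydrogenase, which completes the path from proline to glutamate. Its log2 values were 8.81, 8.53, 8.68 and 8.69 in starved mutants, against 8.87, 8.85, 8.87 and 8.82 in well-fed mutants. In N2 they were 8.68, 8.72, 8.90 and 8.72 without food, against 8.72, 8.63, 8.76 and 8.74 with food. The well-fed mutant arrays were all above the starved mutant arrays and above the well-fed N2 arrays, whereas those of N2 overlapped. Well-fed mutant arrays were all above well-fed N2 arrays for 2.15% of all genes, and all above starved mutant arrays for 15.7%.

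These small differences of *alh-6* did not pass. The starvation difference was -0.17 in the mutant (standard error 0.0744, adjusted p = 0.101 from limma) and 0.04 in N2 (adjusted p = 0.738). The strain difference in well-fed worms was 0.14 (95% confidence interval -0.02 to 0.30, adjusted p = 0.9999 from limma, unadjusted p = 0.0804). The starvation effects, mutant minus N2, differed by -0.22 (95% confidence interval -0.44 to 0.01, adjusted p = 0.735 from limma). Without starved mutant replicate 1 the starvation difference in the mutant was -0.22 and passed (adjusted p = 0.0480 from limma), and without starved N2 replicate 3 that in N2 was -0.0059.

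Genes next to these in the pathway were taken from lists drawn up from general knowledge of worm genes with earlier results of these data known. *alh-13* encodes pyrroline carboxylate synthase and *pycr-1* a pyrroline carboxylate reductase, which together make proline from glutamate, and *argn-1* encodes arginase, which makes ornithine from arginine. *alh-13* had log2 values of 9.61, 10.18, 9.73 and 9.68 in starved mutants, against 11.06, 10.60, 10.997 and 10.94 in well-fed mutants. In N2 it had 9.66, 10.04, 8.49 and 10.11 without food, against 11.097, 11.12, 11.02 and 10.93 with food. It fell by 1.10 on the log2 scale in *alfa-1(ok3062)* (standard error 0.261, adjusted p = 0.00611 from limma) and by 1.47 in N2 (standard error 0.261, adjusted p = 0.000905 from limma). Starved N2 replicate 3 was again lowest, and without it the log2 difference in N2 was -1.10 (adjusted p = 0.000164 from limma). By the methods' t-test *alh-13* did not pass in N2 (adjusted p = 0.0592).

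*pycr-1* followed the same course. It averaged 8.61 ± 0.250 in starved and 9.38 ± 0.111 in well-fed mutants, and 8.43 ± 0.487 in starved and 9.50 ± 0.120 in well-fed N2 (SD, n = 4 each), with no overlap between food conditions in either strain. Starved arrays were all below well-fed ones for 15.7% of all genes in the mutant and 12.2% in N2. *pycr-1* fell by 0.77 on the log2 scale in *alfa-1(ok3062)* (adjusted p = 0.00663 from limma) and by 1.08 in N2 (adjusted p = 0.000669 from limma). Without starved N2 replicate 3, its lowest array, the log2 difference of *pycr-1* in N2 was -0.84 (adjusted p = 0.000321 from limma). *argn-1*, on the ornithine-forming side, averaged 8.55 ± 0.0563 in starved and 8.50 ± 0.142 in well-fed mutants, and 8.62 ± 0.0587 in starved and 8.52 ± 0.110 in well-fed N2. Its starvation difference was 0.05 in the mutant (95% confidence interval -0.12 to 0.23, adjusted p = 0.693 from limma) and 0.10 in N2 (-0.08 to 0.27, adjusted p = 0.453). A further probe set shared by *argn-1* and another gene was not used.

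**Figure D3:**
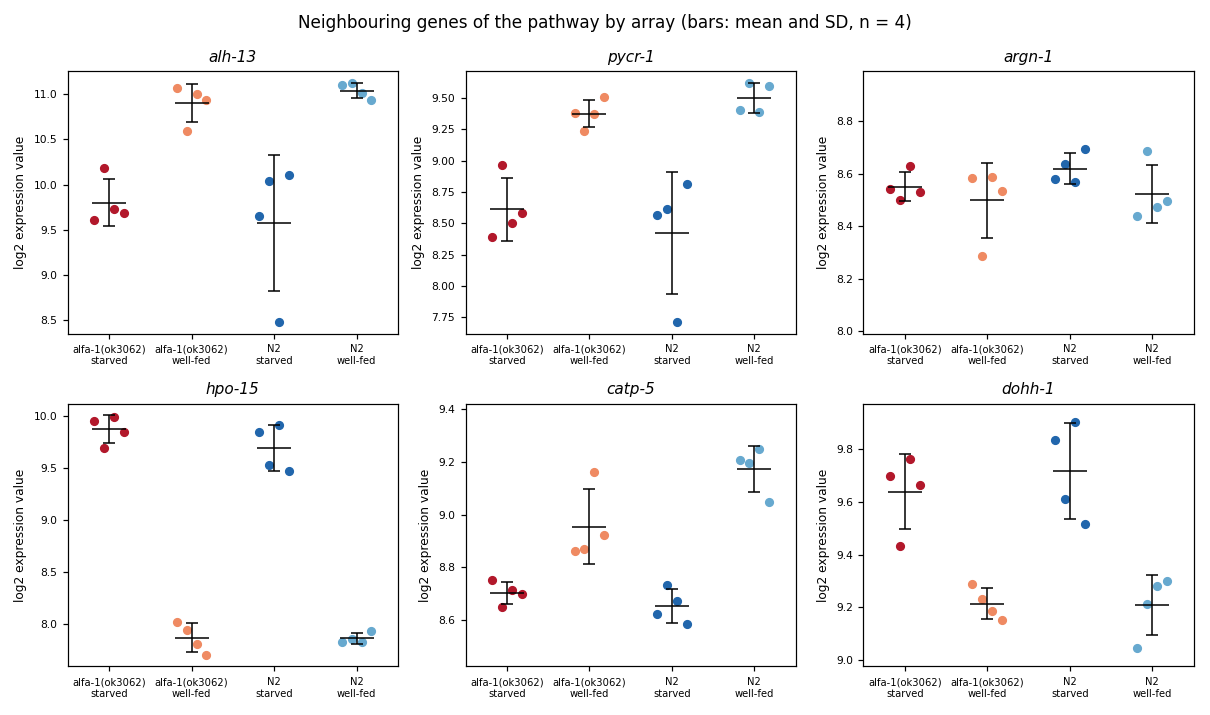
Log2 expression value (y axis) of 6 genes next to the members in the pathway on each array of starved and well-fed *alfa-1(ok3062)* and starved and well-fed N2 worms (x axis), with bars for the mean and SD of 4 arrays. Starved arrays of *alh-13*, *pycr-1* and *catp-5* lie below the well-fed ones, those of *hpo-15* and *dohh-1* above them, and *argn-1* overlaps between food conditions in both strains.

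Polyamine breakdown, transport and use moved in both directions on starvation. *hpo-15*, a relative of the mammalian polyamine oxidases, averaged 9.87 ± 0.134 in starved and 7.87 ± 0.141 in well-fed mutants, and 9.69 ± 0.222 in starved and 7.86 ± 0.0517 in well-fed N2 (SD, n = 4 each). It rose 4.02-fold in *alfa-1(ok3062)* (log2 difference 2.01, adjusted p = 2.93e-08 from limma) and 3.56-fold in N2 (log2 difference 1.83, adjusted p = 8.47e-08 from limma), with no overlap. Starved arrays were all above well-fed ones for 11.7% of all genes in the mutant and 12.2% in N2. *dohh-1*, which encodes the hydroxylase that completes hypusine, rose by 0.43 on the log2 scale in the mutant (adjusted p = 0.00508 from limma) and by 0.51 in N2 (adjusted p = 0.00162). *D2023.4*, an acetyltransferase related to those of spermidine and spermine, fell by 0.61 on the log2 scale in the mutant (adjusted p = 0.000669 from limma) and by 0.50 in N2 (adjusted p = 0.00318).

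*catp-5* encodes a transport ATPase of the worm intestine that takes up polyamines. Its starved arrays lay between 8.65 and 8.75 in mutants and between 8.58 and 8.73 in N2, and its well-fed arrays between 8.86 and 9.16 in mutants and between 9.05 and 9.25 in N2. It fell by 0.25 on the log2 scale in *alfa-1(ok3062)* (adjusted p = 0.0283 from limma) and by 0.52 in N2 (adjusted p = 0.000247 from limma). The fall in the mutant passed in 18 of the 26 alternatives run. It was lost when well-fed mutant replicate 3 (adjusted p = 0.0963 and a log2 difference of -0.18) or starved mutant replicate 2 (adjusted p = 0.0648), 3 (adjusted p = 0.0506) or 4 (adjusted p = 0.0616) was left out. It was also lost after a further quantile (adjusted p = 0.124) or cyclic loess normalization (adjusted p = 0.114). The same was so when only the 8 mutant arrays were fitted (adjusted p = 0.0669) and with the methods' t-test (adjusted p = 0.0651). The falls differed between the strains by 0.27 (95% confidence interval 0.04 to 0.51, unadjusted p = 0.0264 and adjusted p = 0.735 from limma).

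Of the 13 listed genes of polyamine synthesis, transport and use, 12 were tested without *odc-1*. *smd-1* and *spds-1* are among the 12, so their falls, counted above, are counted again here. The shares of all genes were those given above, 10.9% rising and 14.3% falling in *alfa-1(ok3062)* and 10.8% rising and 11.6% falling in N2. On starvation 3 rose, 5 fell and 4 did not pass in *alfa-1(ok3062)*, with a median log2 difference over all 13 of -0.02, against -0.02 over all genes. In N2 likewise 3 rose, 5 fell and 4 did not pass, with a median of -0.25, against 0.01 over all genes. Of the 17 listed genes of ornithine and proline metabolism, 14 had a probe set of their own. In *alfa-1(ok3062)* 1 rose, 5 fell and 8 did not pass, with a median of -0.19, against -0.02 over all genes. In N2 0 rose, 4 fell and 10 did not pass, with a median of -0.09, against 0.01 over all genes. Between the well-fed strains 0 of the 13 polyamine genes passed limma and 2 had an unadjusted p under 0.05, with 0 and 2 by the methods' t-test. For the 14 ornithine and proline genes these counts were 0 and 0 by limma, and 0 and 1 by the methods' t-test. Of all genes, 4.72% had an unadjusted p under 0.05 by limma and 7.04% by the methods' t-test.

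Collagen hydroxylation uses proline after it has entered protein. *phy-2*, a subunit of the collagen prolyl 4-hydroxylase, fell by 1.29 on the log2 scale in *alfa-1(ok3062)* (standard error 0.176, adjusted p = 0.000109 from limma) and fell by 1.38 in N2 (adjusted p = 6.82e-05 from limma). It averaged 8.87 ± 0.272 in starved and 10.16 ± 0.269 in well-fed mutants, and 9.09 ± 0.275 in starved and 10.47 ± 0.272 in well-fed N2 (SD, n = 4 each).

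The aldehyde dehydrogenase family, to which *alh-6* and *alh-13* belong, had 13 listed genes, all measured. Both genes are also on the ornithine and proline list, so the fall of *alh-13* is counted in both lists. On starvation 5 fell and 0 rose in *alfa-1(ok3062)*, where 14.3% of all genes fell and 10.9% rose. In N2 4 fell and 0 rose, where 11.6% fell and 10.8% rose. The median log2 difference was -0.17 in the mutant, against -0.02 over all genes, and -0.06 in N2, against 0.01. *alh-9* fell by 0.47 on the log2 scale in the mutant (adjusted p = 0.000941 from limma) and by 0.34 in N2 (adjusted p = 0.00925), and it averaged 8.79 ± 0.0792 in well-fed mutants and 8.48 ± 0.1503 in well-fed N2 (SD, n = 4 each), without overlap (log2 difference 0.31, adjusted p = 0.508 from limma). Such a lack of overlap, with the well-fed mutants higher, was found for 2.15% of all genes. Between the well-fed strains 0 of the 13 passed limma and 3 had an unadjusted p under 0.05, with 0 and 5 by the methods' t-test (4.72% and 7.04% of all genes at an unadjusted p).

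Markers of molting moved along with *odc-1* in part. The mean log2 level of 6 molting genes (*mlt-8*, *mlt-10*, *mlt-11*, *noah-1*, *nas-37* and *ptr-4*) was 10.55 in starved mutants (10.42 to 10.77 over the arrays), 11.12 in well-fed mutants (11.001 to 11.21), 9.98 in starved N2 (8.97 to 10.61) and 11.07 in well-fed N2 (10.91 to 11.21). All 6 were higher in starved mutants than in starved N2, by 0.16 to 0.85 on the log2 scale with a median of 0.67. Of these 0 passed limma and 3 had an unadjusted p under 0.05, where 4.86% of all genes were higher at such a p. By the methods' t-test the counts were 0 and 0, where 2.52% of all genes were higher at an unadjusted p. The gap between the starved strains rested in part on starved N2 replicate 3. Molting means of starved N2 replicates 1 to 4 were 9.84, 10.50, 8.97 and 10.61, and replicates 2 and 4 lay within the range of the starved mutants. Starved N2 replicate 3, lowest for *odc-1*, had the lowest molting mean of the 16 arrays (8.97), and starved mutant replicate 2, highest for *odc-1*, had the highest molting mean of its group (10.77). Other arrays went the opposite way. Starved N2 replicate 1 had the highest *odc-1* value of its group (9.32) and the second-lowest molting mean (9.84), and well-fed N2 replicate 3 had the lowest *odc-1* value of its group (8.86) and the highest molting mean (11.21). In the mutant the marker means were lower with starvation on every array, and *odc-1* was higher. Their part in the values of *odc-1* was not tested.

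**Figure D4:**
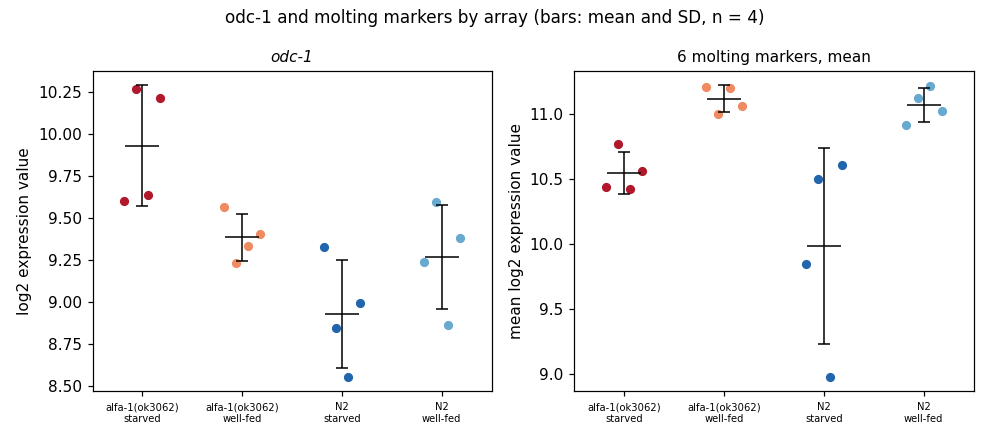
Log2 expression value of *odc-1* (left, y axis) and mean log2 value of 6 molting markers (right, y axis) on each array of starved and well-fed *alfa-1(ok3062)* and starved and well-fed N2 worms (x axis), with bars for the mean and SD of 4 arrays. Starved mutants average 10.55 for the markers and starved N2 worms 9.98, and both lie below the well-fed groups, whereas *odc-1* is highest in starved mutants.

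Germ line markers went the other way by less. Their mean log2 level was 10.01 in starved mutants (9.84 to 10.09), 10.01 in well-fed mutants (9.94 to 10.07), 10.20 in starved N2 (10.13 to 10.34) and 10.005 in well-fed N2 (9.97 to 10.04). All 10 were lower in starved mutants than in starved N2, with a median log2 difference of -0.16, and the mean levels of the starved strains did not overlap. Of these 0 passed limma and 3 had an unadjusted p under 0.05, where 7.27% of all genes were lower at such a p. By the methods' t-test the counts were 0 and 3, where 4.39% of all genes were lower at an unadjusted p. Mean levels of the intestine, body wall muscle and neuron markers overlapped between the starved strains. Those of 5 late larval and adult markers were 11.50 in starved mutants (11.37 to 11.69) and 11.65 in starved N2 (11.56 to 11.79), and overlapped too. Whether these have a part in the values of *odc-1* was not tested.

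The genes whose values were most like those of *odc-1* over the 16 arrays were *nhr-25*, a nuclear receptor needed for molting, with a Pearson r of 0.93, *ptr-8*, a patched-related gene, with 0.90, *F58G1.7* with 0.90, *tep-1*, a thioester-containing protein, with 0.88 and *tyr-4*, of the tyrosinase family, with 0.88. Each had its highest mean in starved mutants and its lowest in starved N2. The log2 difference between these groups was 0.55 for *nhr-25*, 0.69 for *ptr-8*, 0.95 for *F58G1.7*, 0.54 for *tep-1* and 0.32 for *tyr-4*. *odc-1* has the same highest and lowest groups, and these genes were picked by likeness to it. Neither their order nor these differences are therefore a separate result. By Spearman's rho, the closest 5 were *zmp-4* and *cest-25* with 0.86 and 0.85, *ptr-8*, *F58G1.7*, and *catp-3* with 0.82, so that 2 were shared. After the group means were taken away, the closest were *nlp-34*, a neuropeptide-like gene, with an r of 0.95, *K02G10.15*, *F56D2.5* and *C06B3.7* with 0.94 each and *cyp-14A5*, a cytochrome P450, with 0.94. These points share arrays and strain and food groups, and the values are a description.

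The other members were unlike *odc-1* over the arrays. Their Pearson r with it was -0.01 for *smd-1*, 0.07 for *spds-1*, -0.09 for *oatr-1*, -0.54 for *alh-6* and -0.52 for *prdh-1*. With the group means taken away it was 0.18 for *smd-1*, 0.42 for *spds-1*, -0.23 for *oatr-1*, -0.75 for *alh-6* and -0.44 for *prdh-1*. On starved mutant replicate 2, where *odc-1* was highest of its group, *oatr-1*, *alh-6* and *prdh-1* were each lowest of theirs and *spds-1* was highest. On starved N2 replicate 3, where *odc-1* was lowest, *alh-6* and *prdh-1* were each highest of theirs, while *smd-1*, *spds-1* and *oatr-1* were each lowest.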

How the data were processed

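The authors deposited log2 expression values per probe set. RMA and Partek are named in the submitters' processing notes, without versions. RMA corrects background, brings the arrays to one distribution by quantiles and summarizes each probe set, so a shift shared by most genes would have been removed before deposit. Array medians ran from 5.80 to 5.85, and precision is limited by the 4 arrays per group. Probe sets with 1 gene symbol (25546 of 29317) were used, with the probe set of highest mean for the 37 genes with several. The 16 arrays were fitted together as 4 group means (12 residual degrees of freedom) with limma 3.58.1 in R 4.3.3. Benjamini-Hochberg adjustment ran over 25498 genes, and passing means an adjusted p under 0.05. The fit was tested on simulated data. Tables and plots were made with Python 3.11.15 (numpy 2.4.6, pandas 2.3.3, matplotlib 3.10.9). Levels were not compared between genes.

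The members and lists were chosen with earlier results of these data known. Named are the members, *argn-1*, *alh-13* and *pycr-1*, the listed genes that passed, up to 8 by smallest p (16 of 32 listed non-members passed), and the 5 genes most like *odc-1* by Pearson's r, before and after the group means were taken away, with *alfa-1* as a check. No member was tested between the starved strains, and *odc-1* was tested in the well-fed strain comparison only. Alternatives were each array left out, a replicate block, a fit of only the 8 arrays compared, centring on the median, renormalization by quantiles or by cyclic loess, array weights, an intensity trend, dim genes left out, all probe sets, Spearman's rho for likeness to *odc-1*, and the methods' t-test, which the study names for its statistics in general. Positions and sequences were not used here, because the sources used here do not name the genome build of the array annotation. No column of values was left without a sample.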

Additional observations from a re-analysis of the deposited data

Results flagged for a closer look

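Groups of 4 arrays were checked for 1 array far from the other 3, in 15 genes and 4 groups each. Chance flags about 1 in 20 such groups, and 2 of 60 stood out. *prdh-1*, the proline dehydrogenase gene, had a log2 value of 8.14 on starved mutant replicate 2, against 8.67 to 8.75 on the other 3 arrays of its group, a gap of 0.868 of the range. *D2023.4*, the acetyltransferase gene, had a log2 value of 7.92 on well-fed N2 replicate 2, against 7.74 to 7.77 on the other 3, a gap of 0.840 of the range.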

How the results depend on the processing

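The number of members that passed on starvation was 2 of 5 in each strain. In the mutant it was 1 after a further quantile or cyclic loess normalization and between 1 and 3 with 1 array left out. In N2 it was 1 when the 8 arrays were fitted alone, 0 with the methods' t-test and 2 with any 1 array left out. Counts for the well-fed strains and for the interaction were 0 under every alternative run. The starved strain difference of *odc-1* was between 0.874 and 1.13 with 1 array left out and between 0.998 and 1.07 under the other alternatives. The excess of *odc-1* over the median of the other members, 0.977, was between 0.884 and 1.15 with 1 array left out and between 0.959 and 1.09 otherwise. Among tested differences, signs changed only for those that had not passed. The interaction of *smd-1* was -0.0083 after median centring, -0.18 with array weights and between -0.15 and 0.14 with 1 array left out. That of *spds-1* was -0.039 with array weights and between -0.13 and 0.25 with 1 array left out, the lowest without starved N2 replicate 3. With 1 array left out, the starvation difference of *alh-6* in N2 was between -0.0059 (without starved N2 replicate 3) and 0.068, and that of *argn-1* in the mutant between -0.018 (without well-fed mutant replicate 2) and 0.082. The well-fed strain difference of *prdh-1* was between -0.055 and 0.027 (without well-fed mutant replicate 2), its interaction between -0.197 and 0.0062 (without starved mutant replicate 2), and the well-fed strain difference of *odc-1* between -0.020 (without well-fed N2 replicate 3) and 0.224. The causes were not tested.

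No pairing by replicate number was seen. Correlations of same-numbered deviations between groups ran from -0.472 to 0.149, and those of other-numbered ones from -0.397 to 0.412. Such a check cannot show that the samples were unpaired. With the replicate block, the counts of members that passed were 2 in the mutant, 2 in N2 and 0 in the well-fed strains and the interaction, and *odc-1* differed by 0.999 between the starved strains and by 0.977 from the others' median. Over all genes, the block gave 11 between the starved strains in place of 24, and 19 between the well-fed strains in place of 23. Array weights gave 94 and 45, the methods' t-test 3 and 6, and the 8 arrays alone 6 and 22, and 1 array left out gave 11 to 71 and 16 to 32. On starvation in N2 5707 genes passed, against 3042 with the methods' t-test. Of the genes that passed on starvation in the mutant, 43.3% rose, against 53.6% after cyclic loess normalization.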
